A study of Nothobranchius furzeri with 8 samples.

Results

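The genes dusp1, jun and arrdc2 belong to the stress-induced and immediate early genes, and their transcripts were followed in the brain of the annual killifish Nothobranchius furzeri. They were chosen by name from the study's own list of genes changed between sponge-29 and wild-type fish, so the contrast between these groups had already selected them, and they are 3 of the 23546 genes in the deposited tables. All 3 passed the filter on low counts, which kept 19536 genes. The corresponding identifiers are Nfu_g_1_014630 for dusp1, Nfu_g_1_020727 for jun and Nfu_g_1_002380 for arrdc2.

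The study compared whole-brain RNA of 4 wild-type fish of the MZM-04/10p strain with that of 4 fish of the same strain that carry a miR-29 sponge, all at an age of 12 weeks. In the sponge-29 fish (genotype label kif5a::miR-29sponge) a zebrafish kif5aa promoter, which is active in neurons, drives an eGFP transcript with binding sites that take up miR-29. The transgene acts in neurons, whereas the RNA was taken from all cells of the brain, so that fewer cells of a type and less RNA per cell cannot be told apart. The sponge-29 fish of the RNA-seq were of the F1 generation of transgenic fish, and the labels do not give the founder, sex or tank of a fish, nor any batch.

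Immediate early genes are transcribed within minutes of a stimulus, without the need for newly made proteins, and in the brain they mark neurons that were recently active or stressed. Signals that run through MAP kinases act on transcription factors such as SRF and CREB, which switch these genes on, and the genes in turn make transcription factors, brakes of the same pathway and other effectors. dusp1 encodes a phosphatase that removes phosphate from MAP kinases and ends their signal. jun encodes a subunit of the transcription factor AP-1, which it forms with Fos proteins. arrdc2 encodes an α-arrestin, one of a family of adaptors that bring membrane proteins to ubiquitin ligases.

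Libraries held between 18014090 and 24902251 counts on genes, and the totals of all sponge-29 fish (up to 21081878) lay below those of all wild-type fish (from 21665735). The wild-type libraries carry the numbers 42 to 45 and the sponge-29 libraries the numbers 46 to 49. Pairs of libraries of a group were compared by a chi-square per degree of freedom. Sponge-29 pairs with library 49 gave 21.8 to 31.1 and the other sponge-29 pairs 10.1 to 16.7. Library 43 stood apart, at 33.2 to 41.2 against the other wild-type libraries, which gave 13.7 to 15.1 among themselves. Its RPKM, the reads of a gene scaled to its length and to the reads of the library, was 10.3 for ITGAM, a marker of microglia and other myeloid cells, against 1.11 to 1.44 in the other wild-type fish. None of the other 3 immune markers showed a rise of this size. In library 43 irf7 was the highest of the wild-type fish (6.58 against 5.31 to 5.95 RPKM). There mrc1a was the lowest (3.51 against 5.04 to 5.94) and ptpn22 lay within the range of the others (7.93 against 7.51 to 8.20). The log2 fold changes of the members and the r of dusp1 with arrdc2 are also given without library 43. The 6 neuronal markers were detected in every library, with a summed RPKM of 633 to 770 in wild-type and 858 to 973 in sponge-29 fish, in accordance with the tissue label.

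The phosphatase gene dusp1 was about 2-fold higher in the sponge-29 brains. It was measured at 16.6, 20.5, 13.1 and 16.1 CPM (normalised counts, relative to library size after TMM scaling) in wild-type libraries 42, 43, 44 and 45. In sponge-29 libraries 46, 47, 48 and 49 it was measured at 43.3, 35.3, 29.1 and 32.1 CPM. The highest wild-type fish was library 43 and the highest sponge-29 fish library 46, and the groups did not overlap, since the lowest sponge-29 value was 1.42-fold above the highest wild-type value. The group means were 16.6 ± 3.03 CPM in wild-type and 34.9 ± 6.11 CPM in sponge-29 fish (SD, n = 4). The log2 fold change was 1.07 with a standard error of 0.16. On the RPKM scale, which corrects for the gene length of 3753 bases, the level went from 4.47 ± 0.835 to 9.18 ± 1.54 (SD, n = 4). These levels lay at percentile 36.7 and 58.1 of all genes tested.

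The AP-1 subunit gene jun had the smallest difference of the 3 genes and also the smallest spread between fish. Its level was 28.6, 28.2, 33.2 and 24.7 CPM in wild-type libraries 42 to 45. The sponge-29 libraries 46 to 49 gave 39.4, 41.6, 39.1 and 43.9 CPM. Wild-type library 44 came closest to the sponge-29 fish, yet the lowest sponge-29 value was 1.18-fold above it, so the groups did not overlap here either. The mean was 28.7 ± 3.48 CPM in wild-type and 41.0 ± 2.20 CPM in sponge-29 fish (SD, n = 4), which gave a log2 fold change of 0.52 with a standard error of 0.09. In RPKM, with a gene length of 2815 bases, jun went from 10.3 ± 1.27 to 14.4 ± 0.711 (SD, n = 4), at percentile 60.5 and 71.2 of the genes tested.

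The α-arrestin gene arrdc2 had the largest difference and the largest spread of the 3. Wild-type libraries 42 to 45 gave 23.9, 41.2, 17.6 and 19.2 CPM. Sponge-29 libraries 46 to 49 gave 204.8, 101.1, 109.6 and 96.0 CPM. Library 46 alone was at about double the level of the other sponge-29 fish, library 43 was the highest of the wild-type fish, and the lowest sponge-29 value was 2.33-fold above that of library 43. The mean was 25.5 ± 10.8 CPM in wild-type and 127.8 ± 51.6 CPM in sponge-29 fish (SD, n = 4). The log2 fold change was 2.33 with a standard error of 0.33, that is 5.02-fold. Per length (2686 bases), arrdc2 went from 9.60 ± 4.12 to 46.9 ± 18.6 RPKM (SD, n = 4), and from percentile 58.2 to percentile 92.0 of all genes tested.

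**Figure D1:**
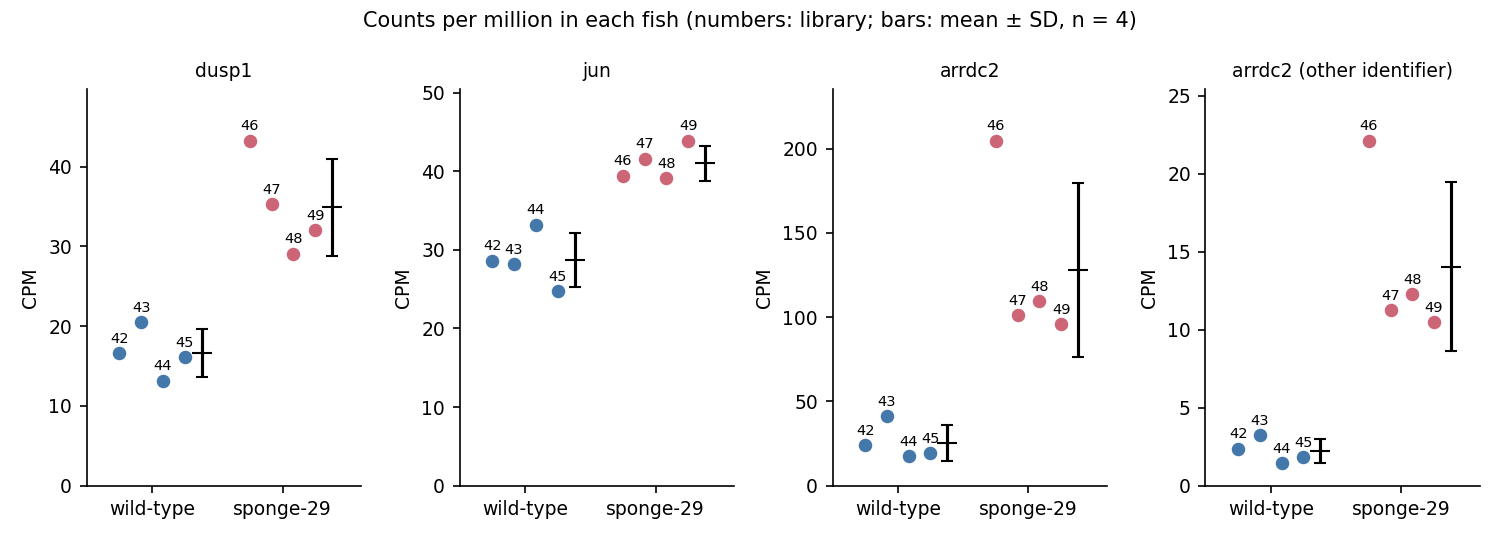
Normalised counts (CPM, linear axes from 0, a separate scale per panel) of dusp1, jun, arrdc2 and the other identifier named arrdc2 in each fish, with points numbered by library and bars giving mean ± SD (n = 4). In every panel all sponge-29 fish lie above all wild-type fish, and library 46 stands out for arrdc2 at 204.8 CPM.

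By edgeR's quasi-likelihood test over all genes, at an adjusted p below 0.05, 3 of 3 members were called higher in sponge-29 fish, where 6.15% of all genes tested were called higher. Likewise 3 of 3 had groups that did not overlap with sponge-29 above wild-type, against 11.4% of all genes tested. Nothing is read from these counts, because the genes were taken from a list made from the same contrast. Ranked by log2 fold change among the 19536 genes, arrdc2 stood at place 31, dusp1 at 194 and jun at 1069. Without library 43 the log2 fold changes were 1.19 for dusp1, 0.51 for jun and 2.66 for arrdc2, and without library 46 they were 0.95, 0.53 and 2.00.

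The order of the 3 genes by RPKM was not the same in the groups. In wild-type fish jun and arrdc2 were at a like level, with group means within their spread, and dusp1 was below both in 4 of 4 fish. The ratio of arrdc2 to jun RPKM ranged from 0.557 to 1.53 in wild-type fish and was above 1 only in library 43. In sponge-29 fish the same ratio ranged from 2.29 to 5.44 and was above 1 in 4 of 4. The jun to dusp1 ratio ranged from 1.83 to 3.37 in wild-type and from 1.22 to 1.82 in sponge-29 fish, so it ended in the latter just below where it began in the former. The arrdc2 to dusp1 ratio ranged from 1.66 to 2.80 and from 4.00 to 6.61, respectively. The ratios with arrdc2 thus stood apart between the groups. For jun to dusp1 the highest sponge-29 ratio (1.824, library 49) and the lowest wild-type ratio (1.831, library 43) differed by less than the counting error. Nothing is read from this separation, because the genes were chosen by the same contrast and ratios of other gene pairs were not examined.

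A second identifier, Nfu_g_1_002271 of 306 bases, also bears the name arrdc2 in the study's supplementary tables, though not in the list from which the 3 genes were taken. It was counted 52, 78, 36 and 43 times in wild-type libraries 42 to 45 and 456, 219, 243 and 185 times in sponge-29 libraries 46 to 49. The fish fell in the same order as for Nfu_g_1_002380 in both groups, with library 43 highest in wild-type and library 46 in sponge-29. Its mean was 2.22 ± 0.783 CPM in wild-type and 14.0 ± 5.43 CPM in sponge-29 fish (SD, n = 4). The fit gave it a log2 fold change of 2.66 with a standard error of 0.32.

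The counts of the short identifier amounted to 7.89 to 9.85% of those of the longer one in wild-type and to 10.8 to 11.2% in sponge-29 fish. Per length, both were nearly at the same level, with an RPKM ratio of 0.692 to 0.864 in wild-type and of 0.948 to 0.984 in sponge-29 fish. Whether these are different genes, parts of one gene model or loci that share reads was not tested, and the rule of the counting for reads with several matches is not given in the sources used here. With the counts of both summed, an alternative chosen after seeing the data, the difference of mean log2 CPM was 2.37.

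**Figure D2:**
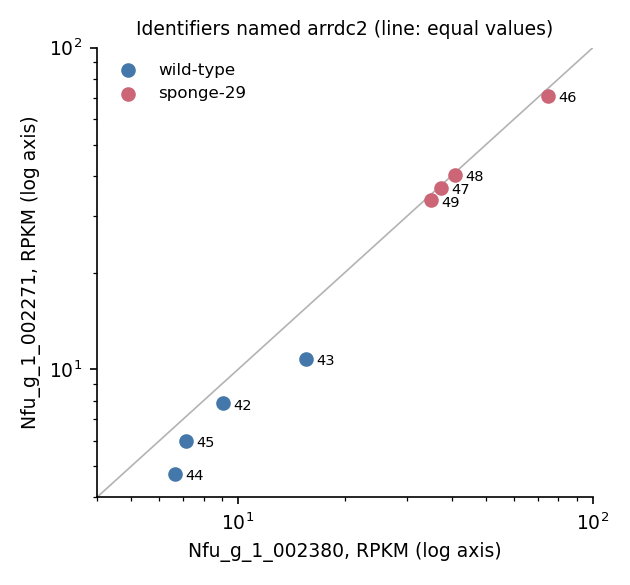
RPKM of the 306-base identifier named arrdc2 against that of the longer one in the 8 fish (both axes logarithmic, points numbered by library, line of equal values). The sponge-29 fish lie close to the line at a ratio of 0.948 to 0.984, and the wild-type fish lie below it at 0.692 to 0.864.

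The 3 genes differed in how much they varied between fish of a group. The pooled SD of log2 CPM within groups was 0.53 for arrdc2, 0.25 for dusp1 and 0.13 for jun, with a median of 0.18 over all genes tested. Among genes within 0.5 of the same mean log2 CPM, arrdc2 lay at percentile 98.8, dusp1 at 85.4 and jun at 47.8 for this spread. Counting error alone would give an SD of 0.03 to 0.06 for arrdc2, 0.06 to 0.07 for dusp1 and 0.05 to 0.06 for jun, so arrdc2 and dusp1 varied between fish well beyond it in both groups. For jun the SD was 0.17 in wild-type fish and 0.08 in sponge-29 fish, the latter close to the counting error of 0.05. The biological coefficient of variation that edgeR assigned was 31.9% for arrdc2, 17.5% for dusp1 and 12.0% for jun, with a median of 15.9% over all genes.

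The deviation of each fish from the mean of its group was compared between the genes. The size of these deviations enters the test behind the list of changed genes, while their likeness between genes does not. The members were, however, chosen with earlier results of these data known. For dusp1 and arrdc2 these deviations went together over the 8 fish, with Pearson's r = 0.88 and Spearman's rho = 0.79 on log2 CPM. The exact two-sided permutation test over the 576 orders of fish within groups gave p = 0.0156 for r, or 0.0469 after Benjamini-Hochberg adjustment over the 3 pairs. The same exact permutation test gave p = 0.0417 for rho, or 0.125 after adjustment. Both genes deviated to the same side in 6 of 8 fish, and the wild-type fish stood in the same order for both, from library 43 over 42 and 45 to 44. In fish 43 and 46, dusp1 was 0.32 above its group mean in both, while arrdc2 was 0.77 and 0.75 above (log2 units). Without these fish r was 0.44 (exact permutation p = 0.583, n = 6, where the smallest p is 0.0278), so the size of r rested on them.

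The adjusted p of this pair was below 0.05 in only 1 of the 8 cases in which a single fish was left out, namely without library 48, while r ranged from 0.80 to 0.93 over these cases. Without library 43, r was 0.81 with an adjusted p of 0.188 in the exact permutation test, and with the trend of each library with gene length removed it was 0.86 with an adjusted p of 0.0521. Among all genes tested, the r of arrdc2 with dusp1 stood at percentile 99.2. The deviations had an r of 0.14 for dusp1 and 0.33 for arrdc2 with the log2 total count of the library.

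For jun no such relation with the other 2 genes was detected. With dusp1 its deviations had r = -0.40 and rho = -0.29 (exact permutation p = 0.417, adjusted 0.595), and with arrdc2 r = -0.27 and rho = -0.48 (exact permutation p = 0.595, adjusted 0.595). Wild-type library 44 was the highest for jun, 0.22 above its group mean, and the lowest for dusp1 and arrdc2, at -0.32 and -0.44 (log2 units). Without library 44 the values were r = 0.11 and r = 0.06, and neither relation can be told from 0 with 8 fish. Without libraries 43 and 46, the fish farthest from the median of dusp1, r was -0.48 for jun with dusp1 (exact permutation p = 0.528). Without libraries 44 and 45, the fish farthest from the median of jun, r was -0.57 for jun with arrdc2 (exact permutation p = 0.333).

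**Figure D3:**
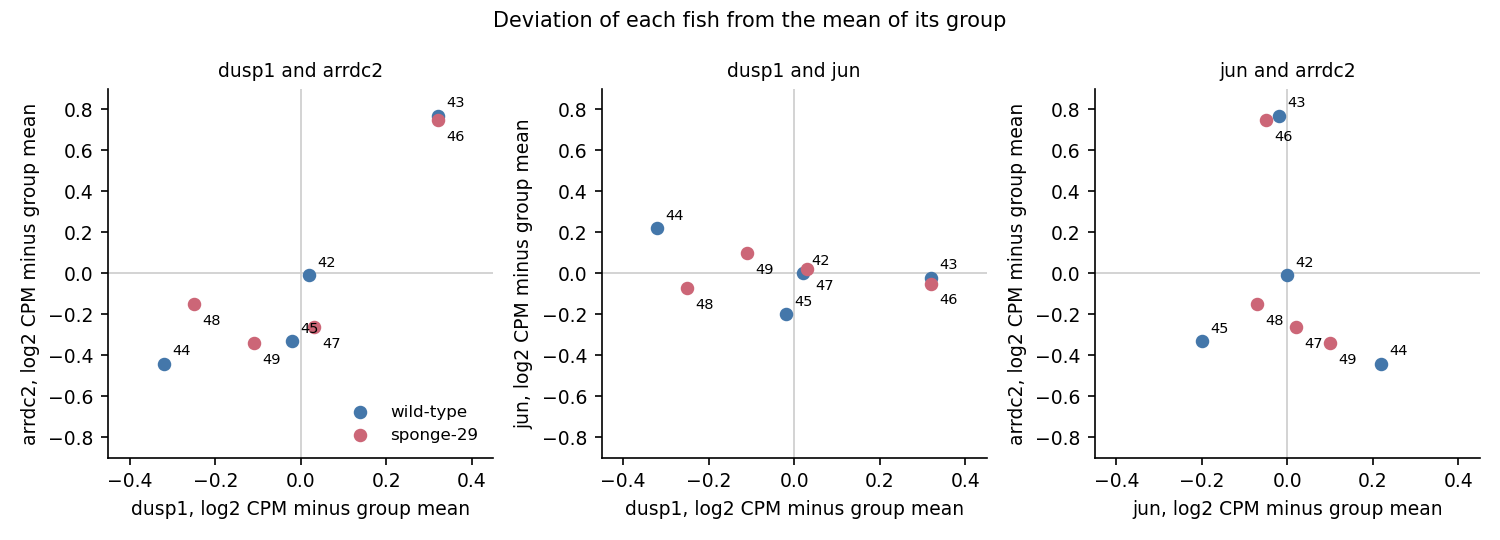
Deviation of log2 CPM from the group mean for each pair of dusp1, jun and arrdc2, one point per fish numbered by library. Libraries 43 and 46 lie together at the upper right for dusp1 and arrdc2 (r = 0.88 with them, 0.44 without), whereas the panels with jun show no common direction.

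Among the 1418 tested genes with a symbol, those whose deviations were most like dusp1 over the 8 fish were hbp1 (r = 0.97), which encodes an HMG-box transcription factor, C18H12orf23 (r = 0.95) and ypel5 (r = 0.95). The closest to arrdc2 were its short namesake (r = 0.98), the stress-responsive transcription factor gene FOXO4 (r = 0.96) and pcmtd1 (r = 0.94). The closest to jun were pparab (r = 0.96), a nuclear receptor gene of fatty acid metabolism, the thrombin receptor gene f2r (r = 0.94) and cdcp2 (r = 0.92). Since 1303 of the genes with a symbol come from the list of changed genes, few others could be named here, and the likeness is a description over 8 libraries. FOXO4, too, was highest in libraries 43 and 46 of their groups, at 39.1 and 59.4 CPM. The values of r with these closest genes were not computed without the 2 libraries. Of all other genes tested, an r above 0.9 was found in 0.553% for dusp1, 0.589% for arrdc2 and 0.148% for jun.

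Other immediate early genes could be followed only where the study's tables give a symbol, and 16 of the 18 identifiers on this list of 16 symbols come from the list of changed genes, so their direction is not independent evidence. All 18 had a log2 fold change above 0, where 49.3% of all genes tested did, with a median of 0.76 against -0.006 over all genes. Of these, 17 were called higher (6.15% of all genes tested) and 0 lower, and 16 had groups that did not overlap with sponge-29 above wild-type (11.4% of all genes tested). The highest was ctgfa, which encodes a secreted matrix protein, at 8.21, 9.99, 5.65 and 7.21 CPM in libraries 42 to 45 and 104, 39.0, 40.1 and 32.1 CPM in libraries 46 to 49, with a log2 fold change of 2.79 and a standard error of 0.39. As for arrdc2, library 46 was far above the other sponge-29 fish and library 43 the highest of the wild-type. It was followed by the growth-arrest gene gadd45g with 1.57 and by the identifier Nfu_g_1_019499 named IER2 with 1.30. The lowest were a tob1a identifier with 0.35, bhlhe40 with 0.38 and, at 0.43 each, ifrd1 and nrn1a. The Krüppel-like factor gene klf4a had 0.65 and was the only one that missed the threshold.

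The partners of jun in AP-1 were among them. The gene fos was measured at 14.6, 19.3, 21.6 and 21.8 CPM in libraries 42 to 45 and at 33.4, 30.9, 34.9 and 35.0 CPM in libraries 46 to 49, a log2 fold change of 0.80 with a standard error of 0.13. The jun relative junba went from 44.6 ± 5.58 to 88.9 ± 10.0 CPM (SD, n = 4), or by 0.99 on the log2 scale with a standard error of 0.11. Both groups of fish stood apart in each gene. Per fish, junba went with jun (r = 0.80) and not with dusp1 (r = 0.01), and fos with neither (r = -0.01 with jun and -0.30 with dusp1). The MAP kinase phosphatase gene dusp5, a relative of dusp1, had a log2 fold change of 0.99 with a standard error of 0.14 and an r of 0.49 with dusp1. These values of r are descriptions over 8 fish, with no test.

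Set against the rest of this list, the deviations of dusp1 and arrdc2 had mostly positive values of r, while those of jun were mixed. The deviations of 14 of the 18 identifiers had a positive r with dusp1 and of 14 with arrdc2, where 49.8% and 50.7% of all genes tested did, and of 6 with jun, where 49.9% did. The medians of r were 0.51, 0.52 and -0.07. Of the 18, 8 were highest in library 43 among the wild-type and in library 46 among the sponge-29 fish, which held for 8.46% of all genes tested. This was not particular to immediate early genes. Of the 17 stress-responsive identifiers described below, 14 had a positive r with dusp1, 14 with arrdc2 and 6 with jun (medians 0.66, 0.56 and -0.11). Among these, 7 were highest in both libraries. Of the 8 SRF and CREB genes, 5 had a positive r with dusp1 and 7 with arrdc2 (medians 0.06 and 0.19). By fish, 15 of the 18 immediate early identifiers lay above the group mean in library 43, 13 in library 46, 14 in library 49 and 2 in library 48.

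**Figure D4:**
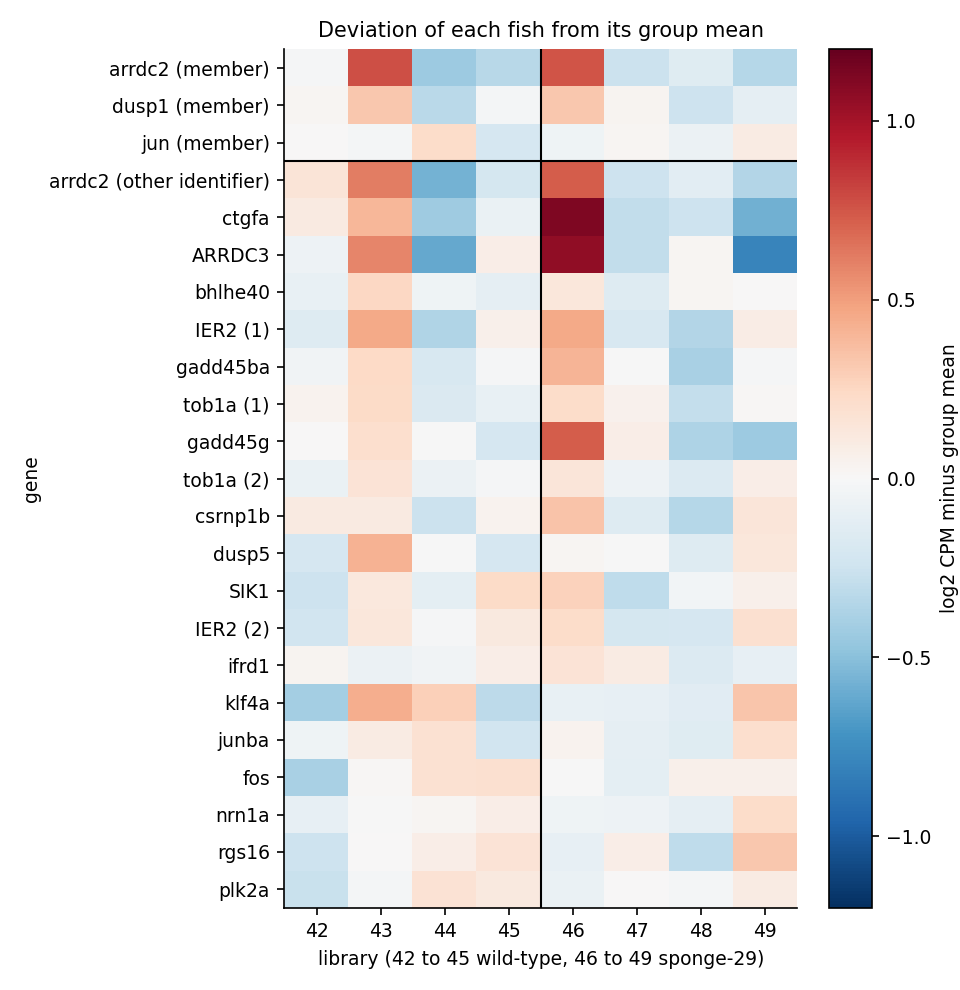
Deviation of log2 CPM from the group mean (colour, red above and blue below) of arrdc2, dusp1 and jun and, under the line, of the arrestin-domain and other immediate early genes, in the order of their r with arrdc2, in each of the 8 libraries. The upper rows are red in libraries 43 and 46, while jun has its highest value in library 44, 0.22 above the mean.

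The arrestin-domain list held the short arrdc2 identifier and ARRDC3, another α-arrestin gene. ARRDC3 was measured at 186, 290.5, 126.5 and 205 CPM in libraries 42 to 45 and at 1359, 532, 661 and 375 CPM in libraries 46 to 49. Library 46 was again the highest and the groups did not overlap. Its log2 fold change was 1.86 with a standard error of 0.40, and its deviations had an r of 0.89 with arrdc2, 0.80 with dusp1 and -0.58 with jun.

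The 6 genes on the list of MAP kinases and related genes went both ways. The kinase genes mknk2b (0.90 on the log2 scale) and mapk14b (0.35), which encodes a p38 kinase, were called higher, where 6.15% of all genes tested were. The JNK gene mapk8b had 0.39 and was not called. The adaptor gene tab3 (-0.39) and the upstream kinase genes map3k10 (-0.37) and MAP3K2 (-0.36) were called lower, where 5.84% of all genes tested were. The groups did not overlap in all 6, with sponge-29 above wild-type in 3, against 11.4% of all genes tested, and below it in 3, against 10.5%. The median of the list was 0. Of the 8 genes for SRF, CREB and their coactivators, atf1 (0.97) and creb1a (0.47) were called higher (6.15% of all genes tested) and 6 were called lower (5.84%), with a median of -0.44. The lower ones included the acetyltransferase genes ep300b (-0.65), crebbpa (-0.53) and ep300a (-0.52), and srf itself (-0.47), which went from 29.3 ± 2.60 to 21.1 ± 2.38 CPM (SD, n = 4). Apart from srf (2504 bases), the lower genes of this list were long, at 8542 to 11725 bases against a median of 2654 over all genes tested. With the trend of each library with gene length removed, the median of the list was -0.31. The part of gene length in these differences was not tested. All 14 genes of these lists come from the list of changed genes, so their calls repeat that selection.

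Of the 17 identifiers of stress-responsive genes, 15 had a log2 fold change above 0 (49.3% of all genes tested) and 2 below, with a median of 0.49, and 10 of the 17 were taken from the list of changed genes. Of the 17, 9 were called higher, against 6.15% of all genes tested, and 1 was called lower, against 5.84%. The highest were igfbp1a (2.18, standard error 0.49), which encodes a binding protein of insulin-like growth factors, the cell cycle inhibitor gene cdkn1a (0.93) and sesn1 (0.66), the last of which missed the threshold. The amino acid transporter gene slc38a2 (-0.86) was called lower and FOXO6 (1 of 2) had -0.41 without a call. In igfbp1a, too, library 43 was the highest of the wild-type fish at 11.1 CPM and library 46 of the sponge-29 fish at 64.3 CPM. FOXO4 went from 28.1 ± 7.50 to 42.9 ± 11.3 CPM (SD, n = 4) with overlapping groups and was not called (log2 fold change 0.61, standard error 0.21), and its deviations had an r of 0.96 with arrdc2 and 0.93 with dusp1.

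**Figure D5:**
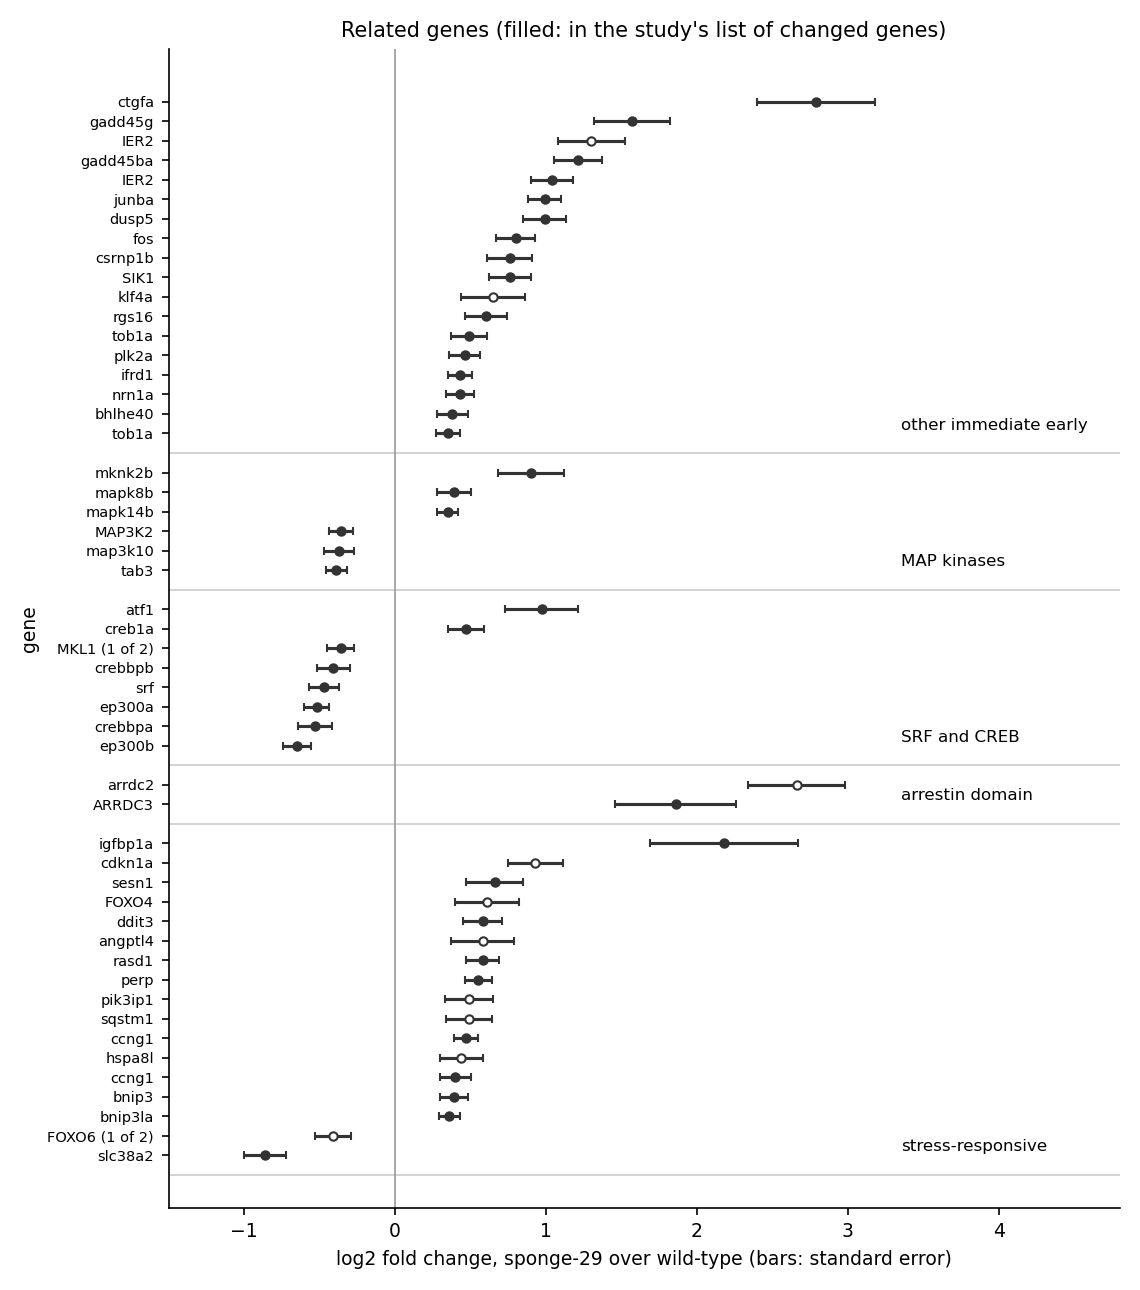
Log2 fold change of sponge-29 over wild-type (points, with standard errors as bars) of the genes of each list, filled where the gene is in the study's list of changed genes. All 18 other immediate early genes lie above 0, the MAP kinase genes are split into 3 above and 3 below, and 6 of 8 SRF and CREB genes lie below 0.

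The sums of some cell type markers also stood apart between the groups. Among them was the neuronal sum given above (633 to 770 in wild-type and 858 to 973 in sponge-29 fish), with all 6 neuronal markers higher by log2 fold change. The study lists nefl, part of this sum, among the up-regulated predicted targets of miR-29. The summed RPKM of 4 glial markers was 189 to 309 in wild-type and 359 to 387 in sponge-29 fish. Most of this sum was KCNJ10 (1 of 2), at 157 to 274 and 318 to 341 RPKM. The groups overlapped for GPR37 (2 of 2), at 5.30 to 7.59 and 7.46 to 9.38 RPKM. For 4 identifiers of vessel markers the sum was 21.1 to 28.0 in wild-type and 13.7 to 18.2 in sponge-29 fish. The vessel sum was lowest in library 43 among the wild-type and in library 46 among the sponge-29 fish, which are the fish with the highest dusp1 and arrdc2. Both ptprb identifiers were lowest in these fish, and eltd1 in library 46 of the sponge-29 fish. Among wild-type fish eltd1 was lowest in library 44 (5.82 against 5.85 RPKM in library 43). For lama4 the lowest were libraries 42 and 49 (4.54 and 3.03 RPKM). The neuronal and glial sums were also lowest in library 43 of the wild-type fish (633 and 189), but not in library 46 of the sponge-29 fish. The sums of 4 immune cell markers overlapped (19.6 to 28.3 and 21.7 to 24.0) through ITGAM in library 43. Without that fish wild-type ranged from 19.6 to 20.2. These sums hide opposite directions. By log2 fold change irf7 (0.48) and mrc1a (0.79) were higher in sponge-29 fish, and ptpn22 (-0.38) and ITGAM (-1.84) were lower. For 3 muscle markers the sums overlapped as well (26.0 to 34.2 and 33.0 to 46.3). Among these, neb was lower (2.59 to 3.53 and 0.662 to 0.882 RPKM) and tnnc1a higher (3.88 to 7.33 and 7.64 to 8.77 RPKM) in all sponge-29 fish. The sums of epd and ptgdsb, secreted proteins of meninges and brain fluid, were 1163 to 3119 and 3538 to 5091. None of these markers was at 0 in any library. In library 43 the last sum was the lowest of all fish, and the immune sum was the highest with ITGAM and, at 18.0, the lowest of the wild-type fish without it. The marker symbols come from the same supplementary tables, and 1303 of the 1418 tested genes with a symbol are on the list of changed genes. The separation of the marker sums is therefore not independent evidence. Over all genes tested, the groups did not overlap in 11.4% with sponge-29 above wild-type and in 10.5% below it. The part of cell composition in the differences of dusp1, jun and arrdc2 was not tested.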

How the data were processed

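RNA from the brain of 4 wild-type and 4 sponge-29 fish was made into TruSeq libraries and sequenced as single reads. The authors mapped the reads to the N. furzeri genome and deposited counts per gene without normalization, with RPKM values of the same genes that the authors scaled to gene length and reads. The submitters' processing notes name bcl2fastq 1.8.4, TopHat2 2.0.6 and featureCounts 1.4.3-p1. The name of the assembly and the rules for strand and repeated matches are not given in the sources used here. Columns without a mapped sample numbered 0.

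Counts were fitted as deposited with edgeR 4.0.16 in R 4.3.3, using filterByExpr (minimum count 10), TMM scaling (factors 0.979 to 1.02), the quasi-likelihood test and Benjamini-Hochberg adjustment over 19536 genes. Log2 CPM used a prior count of 2. Counts divided by RPKM gave the gene lengths. Steps were tested on simulated data. The study's results name biological replicates for the experimental group, and the fish of both groups were treated as such here. No pair of libraries was identical.

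The members and lists were chosen with earlier results of these data known. Symbols were taken from the identifier and symbol columns of the study's supplementary tables, which name 1418 identifiers. The columns of fold changes and p-values in those tables, which hold the authors' own comparisons, were not used. No identifier matched the RefSeq gene table, so neither coordinates nor sequences are given. Named genes are the 3 members, the other arrdc2 identifier, the 3 tested genes with a symbol most like each member, and genes of the lists (other immediate early, MAP kinase, SRF and CREB, arrestin-domain, stress-responsive, and markers of neurons, glia, vessels, immune cells, muscle, meninges and brain fluid), with values mainly for the 3 highest and 3 lowest of a list. fos, junba, dusp5, srf and FOXO4 were singled out after their values were seen.

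Alternatives were other scaling factors, no filter, limma 3.58.1 on log2(RPKM + 0.1), on log2(RPKM + 1) or after voom, DESeq2 1.42.0, the likelihood ratio test of edgeR, a prior count of 0.5, the removal of a gene-length trend per library (natural spline, 4 degrees of freedom), and each fish left out. Figures were drawn with matplotlib 3.10.9.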

Additional observations from a re-analysis of the deposited data

Results flagged for a closer look

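For arrdc2 in the sponge-29 group, library 46 at 204.8 CPM stood far from the other 3 fish, at 96.0 to 109.6 CPM. On the linear CPM scale, used for all gaps given here, the gap was 0.875 of the range of the group, above Dixon's limit for 4 fish. The short identifier named arrdc2 showed the same fish apart, at 22.1 CPM against 10.5 to 12.3, with a gap of 0.846 of the range. The other 6 groups of 4 fish that were examined for dusp1, jun and both arrdc2 identifiers stayed below the limit, with arrdc2 in wild-type fish (library 43) next at 0.732. Chance flags about 1 in 20 groups, and the flags of the arrdc2 identifiers are not independent of each other. Both flags depend on the linear scale. On log2 CPM, the scale used for the spread between fish, library 46 was at 7.68 for arrdc2, against 6.59 to 6.78. For the short identifier library 46 was at 4.47, against 3.4 to 3.63. On this scale neither gap passed the limit. Why library 46 stands apart was not tested.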

How the results depend on the processing

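The log2 fold changes of dusp1 (0.90 to 1.19), jun (0.45 to 0.59), arrdc2 (2.00 to 2.66) and the short arrdc2 identifier (2.35 to 2.91) kept their direction under every alternative run. All of them stayed within 1 SD of the replicates. The counts of higher genes in the lists did not change. The members and most list genes were selected by this same contrast, so the kept direction is not independent evidence. Leaving out a fish could not reverse the members, whose groups did not overlap. The median of the MAP kinase genes lay between -0.05 and 0.10, on both sides of 0. That of the SRF and CREB genes lay between -0.52 and -0.31, the latter with the gene-length trend removed. The number of genes called, 2341, became 3784 with DESeq2 and 1529 with the gene-length trend removed, and 427 (without library 45) to 2125 with a fish left out, 441 without library 47; the cause was not tested. For dusp1 and arrdc2, r was 0.86 with the gene-length trend removed, no longer past the threshold, 0.44 without libraries 43 and 46, where 6 fish allow no single pair an adjusted p under 0.0833, and 0.80 to 0.93 with a fish left out. With a fish left out, r ranged from -0.63 to 0.11 for dusp1 and jun (0.11 without library 44) and from -0.72 to 0.06 for jun and arrdc2 (0.06 without library 44). No paired analysis was possible because the labels give fish of the groups no shared number. With 8 fish, weak covariation cannot be detected. Counts of the 3 genes were 330 or more, and depth limits mainly the deviations of jun in sponge-29 fish, whose SD of 0.08 is near the counting error of 0.05.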
